A study of Homo sapiens with 6 samples.

Results

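A set of 9 germ-line genes was read in both comparisons of imatinib-resistant K562 cells with their parent: MAEL, RNF17, TDRD6, PIWIL4, TEX19, DDX53, SYCP2, NLRP14 and PRDM9. K562 is a cell line from a human chronic myeloid leukaemia, whose BCR-ABL1 fusion kinase is the target of imatinib. The 6 RNA sequencing libraries form 3 groups of 2, namely the resistant lines K562-IR1 and K562-IR2, each kept in imatinib at all times, and the drug-sensitive parent K562-WT. Resistance and drug exposure therefore go together in this design. In each group 1 of the 2 libraries is marked as repeated, and nothing says that they came from separate cultures. How the resistant lines were selected is not stated in the labels.

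The 9 genes are 9 of the 674 rows of the authors' deposited table of genes shared by the comparison of IR1 with WT and that of IR2 with WT. They were found by Ensembl identifier, and all 9 had a row. They were chosen by function from genes already in that table, so the log2 fold changes themselves decided which genes could be members, and the values below are a description without a test. No row has an absolute log2 fold change under 1.5 in either column. The header names neither the resistant line of each column nor the group on top of the fold, so columns are named by their position and genes as positive or negative by their sign. The table gives no error, p-value, read count or level per library, so depth is unknown and no difference could be compared with replicate error.

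The piRNA pathway protects the germ line from transposons. Short RNAs guide PIWI proteins to transposon transcripts and, in the nucleus, to transposon loci, and proteins with Tudor domains bind methylated PIWI proteins and assemble the granules in which the pathway works. In meiosis, homologous chromosomes are cut, paired and held together by the synaptonemal complex. Genes for these steps are normally active in testis or ovary and silent in blood cells. In mouse, the repressor E2F6 keeps a number of meiosis genes silent in somatic cells, in a Polycomb-type complex that also holds MGA and MAX, which bind E-boxes.

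Across both comparisons, 8 of the 9 genes were positive in both columns and 1, PRDM9, was negative in both, while 74.3% of all 674 listed genes were positive. MAEL, RNF17 and SYCP2 had the largest folds, of at least 8-fold in both columns of the authors' deposited table, a size that 19.6% of listed genes reached. The other positive genes lay lower, between 1.502 and 3.05 on the log2 scale of the authors' deposited table. Because the table itself chose the genes, nothing is read from these shares. RNA was taken from whole cultures, so more or fewer expressing cells and more or less RNA per cell cannot be told apart.

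**Figure D1:**
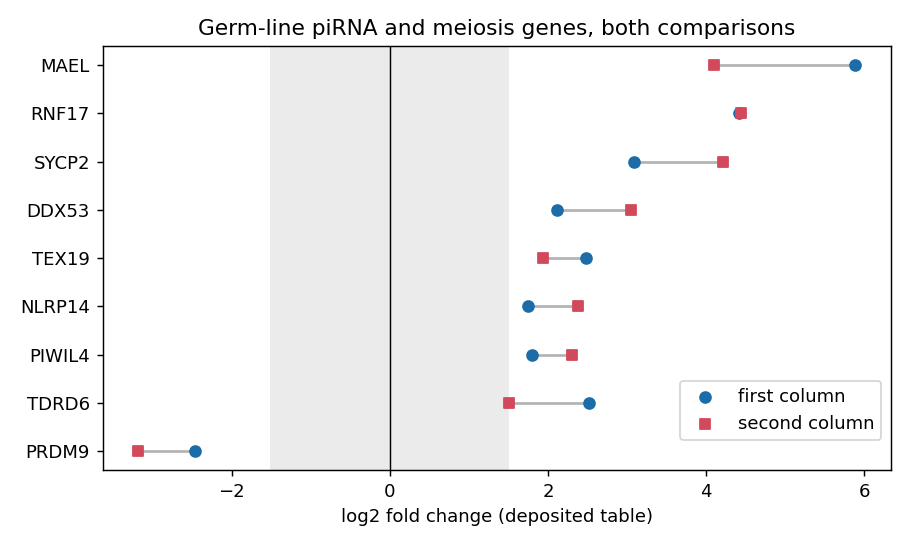
Log2 fold changes of the 9 germ-line genes in the first (blue circles) and the second (red squares) column deposited by the authors, ordered by their mean; the grey band marks absolute values under 1.5, which the table does not hold. MAEL, RNF17 and SYCP2 stand above 3 in both columns, TDRD6 touches the band in the second column, and PRDM9 alone is negative.

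Among the piRNA genes, MAEL (ENSG00000143194), a protein with an HMG box that in mouse is needed for transposon silencing and male meiosis, had the largest fold. The authors' deposited table gave it a log2 fold change of 5.88 in the first column, a 58.8-fold difference, and 4.10 in the second, a 17.2-fold difference. In the first column this was the highest value of all 674 genes, whereas in the second it ranked 100th among the 501 positive genes. PIWIL4 (ENSG00000134627), the PIWI protein whose mouse counterpart acts in the nucleus of fetal germ cells and directs DNA methylation to transposons, had log2 values of 1.79 (3.46-fold) and 2.30 (4.93-fold) in the authors' deposited table, the first column's value ahead of the second's as in all pairs below. TEX19 (ENSG00000182459), whose mouse counterparts restrain retrotransposons in germ cells and placenta, had log2 values of 2.49 (5.60-fold) and 1.94 (3.83-fold) there, by the authors' deposited table. These genes of the same pathway thus differed widely in fold size: by the mean of both columns, MAEL ranked 11th, TEX19 355th and PIWIL4 400th of the 501 positive genes.

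The Tudor domain genes also differed in size. RNF17 (ENSG00000132972), a RING finger and Tudor domain protein that mouse spermatids need to develop, had log2 values of 4.41 (21.3-fold) and 4.44 (21.7-fold), the most even pair among the 9 genes in the authors' deposited table. TDRD6 (ENSG00000180113), a scaffold with several Tudor domains in the chromatoid body of mouse spermatids, had 2.52 (5.72-fold) and 1.502 (2.83-fold) in the authors' deposited table. The value of TDRD6 in the second column was the smallest in size of all 674 genes, so this gene is a member by the narrowest margin that the table allows. Genes just under that limit were not analysed here. DDX53 (ENSG00000184735), a DEAD-box RNA helicase gene on the X chromosome and known as a cancer-testis antigen, had log2 values of 2.11 (4.33-fold) and 3.05 (8.29-fold), as the authors' deposited table gives them.

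Of the meiosis genes, SYCP2 (ENSG00000196074) and PRDM9 (ENSG00000164256) had opposite signs. SYCP2, which forms the axes of the synaptonemal complex together with SYCP3, was positive, with log2 values of 3.09 (8.49-fold) and 4.21 (18.6-fold) in the authors' deposited table. PRDM9, a zinc finger histone methyltransferase that places the sites of meiotic recombination in human and mouse, was negative, with -2.46 (5.49-fold in size) and -3.18 (9.06-fold in size) in the authors' deposited table. Among the 173 negative genes PRDM9 ranked 63rd by the size of its mean fold.

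NLRP14 (ENSG00000158077), a member of the NLR family that is expressed in oocytes and testis, had log2 values of 1.75 (3.36-fold) and 2.38 (5.22-fold) in the authors' deposited table. The zinc finger gene ZNF214 lies head to head with it on the opposite strand, with 78 bases between the GENCODE starts, and was listed too, with 1.504 and 2.22 in the authors' deposited table. Both genes thus had positive folds, each larger in the second column. Whether they share a regulator was not tested.

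**Figure D2:**
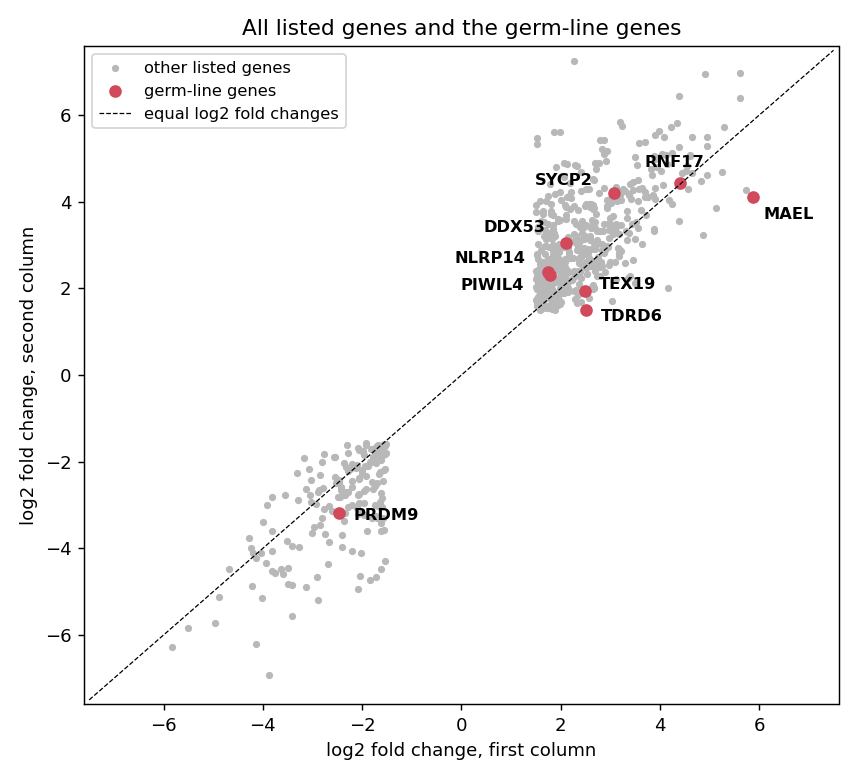
Log2 fold change in the second column against that in the first for the 9 germ-line genes (red, named) and the other listed genes (grey) of the authors' deposited table; the dashed line marks equal values. MAEL is the point farthest to the right, TDRD6 lies at the lower edge of the positive genes, and PRDM9 lies among the negative genes.

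By size, 6 of the 9 genes had the larger fold in the second column, against 76.7% of all listed genes, and 3 (MAEL, TDRD6 and TEX19) had it in the first, as did 157 listed genes in all. Both comparisons use the same WT libraries, and the choice of genes used both columns. For MAEL the absolute log2 fold change in the authors' deposited table was 1.78 larger in the first column, a 3.42-fold ratio, and only TC2N among the 674 genes had a larger excess in that direction. TDRD6 was 1.01 larger in the first column of the authors' deposited table, a 2.02-fold ratio that ranked 12th, and only 13 listed genes had an excess over 1 in that direction. SYCP2, which by the authors' deposited table was 1.13 larger in the second column, was the only one of the 9 genes past 1 on that side, where 168 listed genes lay. RNF17 differed by 0.03. The columns thus ordered the genes differently, with MAEL, RNF17 and SYCP2 highest in the first and RNF17, SYCP2 and MAEL in the second. Without errors, it cannot be said which neighbours in either order differ.

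**Figure D3:**
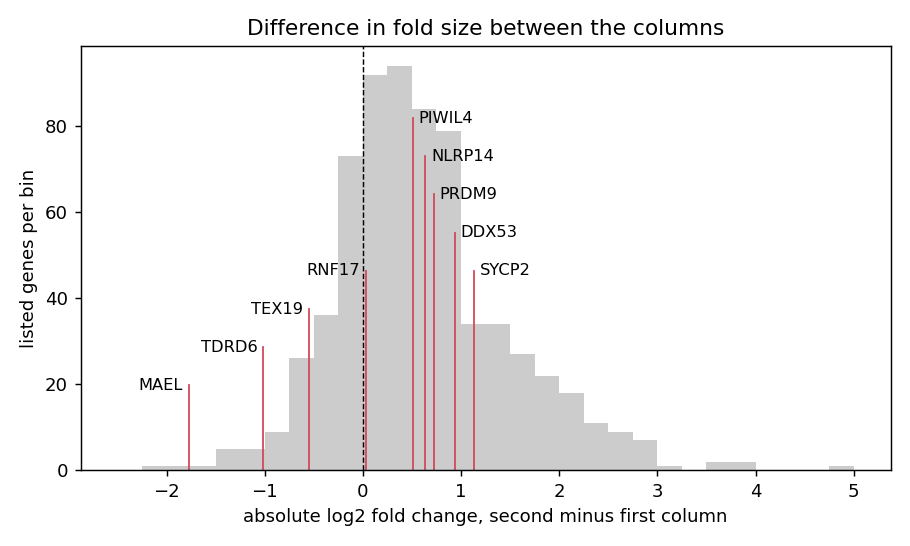
Histogram of fold size, as absolute log2 value, in the second minus the first column for the 674 listed genes of the authors' deposited table, in bins of 0.25; red lines mark the 9 germ-line genes, and their heights carry no value. MAEL (-1.78) and TDRD6 (-1.01) stand in the left tail, and 6 of the genes lie to the right of 0.

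By the authors' deposited table, the 8 positive germ-line genes had a median log2 fold change of 2.50 (first column) and 2.72 (second column). The medians were 2.26 and 2.69 for the 352 positive protein-coding genes and 2.28 and 2.92 for all 501 positive genes, by the same deposited table. The set was split around these medians. By the mean of both columns MAEL, RNF17 and SYCP2 ranked 11th, 40th and 87th of the 501 positive genes, while the other 5, from DDX53 (265th) to TDRD6 (411th), lay below the middle. The median of that mean in the authors' deposited table was 2.40 for the 8 genes and 2.64 for all positive genes. For the positive protein-coding genes it was 2.51, and DDX53, at 2.58, lay above that value. In absolute mean fold, MAEL, RNF17 and SYCP2 were above the upper quartile of the table.

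The nearest other gene in both columns was farther from MAEL than from PRDM9 or TEX19. KLHL6, an adaptor of a ubiquitin ligase in B cells, at 5.74 and 4.28, and LINC02972, at 5.14 and 3.86, were nearest to MAEL in the authors' deposited table, at Euclidean distances of 0.22 and 0.78 on the log2 scale. SOCS1, an inhibitor of cytokine signalling (-2.44 and -3.22), and the fibronectin gene FN1 (-2.34 and -3.18) were nearest to PRDM9 in the authors' deposited table, at distances of 0.048 and 0.12. TEX19, the gene in the middle of the set, was nearest to MCUB, a subunit of the mitochondrial calcium uniporter (2.48 and 1.94), and the netrin receptor gene UNC5B (2.51 and 1.91) in the authors' deposited table, at distances of 0.0034 and 0.030. With only 2 values per gene and shared WT libraries, likeness on this measure says nothing of common function.

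Reference promoters were searched for the letters GCGGGAA, an E2F6-like motif, and CACGTG, an E-box that reads alike on both strands, in windows of 250 bases before to 50 after each RefSeq start on GRCh38.p14. RefSeq windows were held for 7 of the 9 genes, with 2 starts for MAEL, and PIWIL4 and TEX19 had none in the table. The E2F6-like letters stood in NLRP14, SYCP2 and PRDM9, and the E-box at the later of the MAEL starts. These 4 windows are shown because they hold the matches; the 250 bases before each start are given 5′ to 3′, with the matched letters in capitals.

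NLRP14 (chr11:7020229-7020478, plus strand): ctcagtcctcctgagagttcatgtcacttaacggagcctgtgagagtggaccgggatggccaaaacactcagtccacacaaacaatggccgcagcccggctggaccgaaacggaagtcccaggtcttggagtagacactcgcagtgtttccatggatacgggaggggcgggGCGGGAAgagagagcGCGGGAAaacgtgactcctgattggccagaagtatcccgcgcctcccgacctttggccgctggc

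SYCP2 (chr20:59933638-59933887, minus strand): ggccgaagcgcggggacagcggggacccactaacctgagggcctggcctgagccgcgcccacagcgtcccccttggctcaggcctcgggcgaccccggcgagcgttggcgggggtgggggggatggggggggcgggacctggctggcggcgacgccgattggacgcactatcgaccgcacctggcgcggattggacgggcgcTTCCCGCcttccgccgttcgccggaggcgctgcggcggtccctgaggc

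PRDM9 (chr5:23507359-23507608, plus strand): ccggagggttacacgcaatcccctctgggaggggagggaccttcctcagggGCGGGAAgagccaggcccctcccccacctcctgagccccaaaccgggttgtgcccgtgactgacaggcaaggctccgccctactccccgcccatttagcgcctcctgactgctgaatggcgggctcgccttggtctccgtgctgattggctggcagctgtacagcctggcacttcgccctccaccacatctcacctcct

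MAEL, later start (chr1:166989030-166989279, plus strand): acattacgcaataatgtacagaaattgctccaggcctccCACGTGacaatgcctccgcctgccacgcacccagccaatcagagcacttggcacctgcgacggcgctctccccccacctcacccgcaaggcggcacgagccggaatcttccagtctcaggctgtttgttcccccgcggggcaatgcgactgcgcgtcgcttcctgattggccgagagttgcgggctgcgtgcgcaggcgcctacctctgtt

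In NLRP14 the E2F6-like letters occurred 2 times, 57 and 72 bases ahead of the start, counted from the end of the match. The promoter window of its head-to-head neighbour ZNF214 shares 232 of 300 bases with that of NLRP14 and holds both matches too. SYCP2 held them once on the opposite strand, as TTCCCGC, 41 bases ahead of its start, and PRDM9 once, 192 bases ahead. Thus 3 of the 7 genes with a window (42.9%) held the E2F6-like letters, against 7.82% of the 27305 genes in the promoter table. CpG-rich windows were defined by an observed to expected CpG ratio of at least 0.6 and a GC content of at least 55%. Among them the share of genes was 13.2%, and among the 326 positive listed genes with a window it was 11.7%. The 42.9% counts PRDM9, which is in neither of these sets, being negative and having a CpG ratio of 0.51. The E-box stood in 1 of the 7 genes (14.3%), against 8.77% of all genes in the promoter table. Its share was 11.6% of genes with CpG-rich windows and 11.7% of positive listed genes. A match describes the reference letters only, and binding of any factor was not measured. The positive genes NLRP14 and SYCP2 and the negative gene PRDM9 all carried the E2F6-like letters, so the letters stood in genes of both signs.

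In 7 of the 8 windows, of which MAEL gives 2, the CpG content was above the median of all promoters. The observed to expected CpG ratio ran from 0.51 in PRDM9 to 1.12 at the earlier MAEL start, with a median of 0.85 over the 8 windows, against a median of 0.58 over the 35116 windows of the promoter table and 0.66 over the 499 windows of positive listed genes. PRDM9 and DDX53 (0.60) stood near the middle of all windows, at percentiles 46.7 and 51.4. The other windows lay higher, with RNF17 at percentile 70.9, NLRP14 at 76.9, the later MAEL start at 80.1 and SYCP2 at 89.3. TDRD6 had a ratio of 0.79 (percentile 66.6). DNA methylation was not measured in these data.

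**Figure D4:**
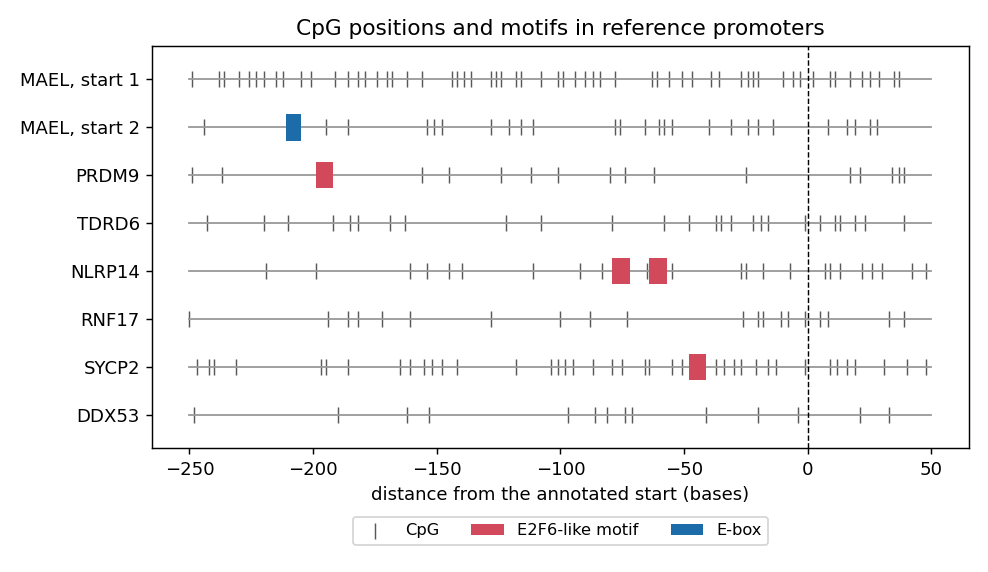
CpG positions (grey ticks), E2F6-like letters (red) and the E-box (blue) in the reference promoter windows of 7 germ-line genes, by distance in bases from the annotated start (dashed line); MAEL has 2 starts. The red blocks end 57 and 72 bases ahead of the start in NLRP14, 41 in SYCP2 and 192 in PRDM9.

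Of the 19951 protein-coding genes in GENCODE release 29, 480 (2.41%) had a row, so most members of any short list are absent, and the counts that follow are given as a record against that share, with no reading of which lists are present or absent. PIWIL4 was the only one of 4 PIWIL genes listed, TDRD6 of 9 TDRD genes, SYCP2 of 4 SYCP genes, NLRP14 of 14 NLRP genes and PRDM9 of 15 PRDM genes. Of 38 DDX genes DDX60L (2.51 and 2.61) was listed beside DDX53, and of 39 TEX genes TEX9 (2.37 and 2.11) beside TEX19, on the log2 scale of the authors' deposited table; both were named after their values were seen. Beyond single families, 219 genes of 13 lists were looked up, of which 218 matched a symbol (SIX6OS1 did not) and 11 were listed. Of these 11, 9 were the members, chosen because they had a row, and only 2 were other genes. The presence of the members in the lists was thus fixed in advance. Germ-line genes outside the 13 lists were not counted, so the 2 are no measure of how many others had a row. Of the piRNA list, 3 of 24 genes were listed, all positive. The Tudor domain list held 2 of 14, the germ-line DEAD-box list 1 of 4, the synaptonemal complex list 1 of 14, the oocyte list with NLRP genes 1 of 23 and the TEX list 1 of 33, again all positive. PRDM9 was the only one of 29 recombination genes. Neither the 11 genes of meiotic cohesin and telomere attachment, the 15 of meiotic entry and germ-line RNA binding, nor the 19 repressors of germ-line genes and enzymes that set or remove DNA methylation had a row. A gene without a row may be unexpressed, untested by the authors or under their limits in 1 comparison, and these cannot be told apart.

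Markers of other testis cells were looked up in the same way, against the same share of 2.41%. Of 12 spermatogonial genes, ZBTB16, a transcription factor that in mouse maintains spermatogonial stem cells (2.01 and 2.38), and the homeobox gene RHOXF2B (2.34 and 1.85) were listed, both positive by the authors' deposited table. RHOXF2B has the near-identical copy RHOXF2, and its value is uncertain where reads fit both. Of 14 spermatid genes and 13 Sertoli and Leydig cell genes 0 were listed, and lists of this length are too short for a contrast with the spermatogonial list. These counts cover only the genes looked up. ADCY10, a soluble adenylyl cyclase of sperm given below, had a row but was on neither list. The levels of the defining markers of K562 cells were not used here, so the labelled line was not checked.

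Annotation limits some single values. All 9 genes are annotated as protein-coding, on 8 chromosomes, with PIWIL4 and NLRP14 on chromosome 11. In GENCODE release 29, exons of PIWIL4 overlap those of FUT4 on the same strand and of PIWIL4-AS1 on the opposite one, and exons of TDRD6 overlap those of TDRD6-AS1 and PLA2G7 on the opposite strand. DDX53, a gene with 1 exon, overlaps the body of PTCHD1-AS on the opposite strand, with no overlap of exons. Of the windows of 50 bases in the longest coding transcript, 42.3% were shared with another gene in TEX19, all with an overlapping gene of unsettled type on the opposite strand. PRDM9 shared 10.7% of its windows with its close relative PRDM7, and TDRD6 2.87%, mostly with TDRD6-AS1. For the other 6 genes 0 windows were shared. None of the overlapping genes was listed. The strand setting of the counting was not given in the labels used here. Where these genes overlap an opposite-strand gene, it is therefore unknown whether the counting told the reads of both apart. In the longest coding transcript, windows shared with an overlapping opposite-strand gene made up 42.3% in TEX19. In TDRD6, 2.08% were shared with TDRD6-AS1, and the other gene or genes behind the rest of its 2.87% were not recorded. PIWIL4 shared 0 windows with any other gene. Other transcripts of these genes are not part of these shares. Where exons of PIWIL4 overlap those of FUT4 on the same strand, no strand setting could separate the reads.

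Beside ZNF214, the listed genes within 1 Mb of a member were ADCY10, a soluble adenylyl cyclase of sperm (3.12 and 2.23), 787 kb from MAEL, and TNFRSF21, a death receptor gene (1.53 and 1.73), 527 kb from TDRD6, on the log2 scale of the authors' deposited table. ADCY10, like MAEL, had the larger fold in the first column, whereas TNFRSF21 had it in the second and TDRD6 in the first. The other 6 genes had no listed neighbour within that distance.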

How the data were processed

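The human build hg19 and the tools HISAT2 2.1.0, Subread, featureCounts and DESeq2 3.5 are named, without roles or settings, per the submitters' processing notes. The values are log2 fold changes that the authors deposited for genes shared by both comparisons, without errors, counts or values per library, so no test was run and the depth per library is unknown. Symbols came from a gene name table (654 of 674 identifiers), and gene type, exons and neighbours from GENCODE release 29 on GRCh38 (657 identifiers). Promoters came from RefSeq on GRCh38.p14, a build other than the authors'. Medians, ranks, motif matches and windows of 50 bases shared between transcripts were computed in Python 3.11.15 with pandas 2.3.3 and checked on simulated data.

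The members and lists were chosen with earlier results of these data known. Named genes are the 9 members, listed genes of the lists, the 2 nearest genes to the highest, lowest and middle member, and overlapping genes or listed neighbours within 1 Mb. TC2N, PRDM7 and the family members DDX60L and TEX9 are named in addition. Alternatives covered the size of the folds, the members included, gene type, the ranking column, the promoter window and older symbols.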

Additional observations from a re-analysis of the deposited data

How the results depend on the processing

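Of 12 alternatives for 8 results, 6 kept the value within its limits, and 0 values changed sign. When absolute log2 fold changes had to be at least 2 in both columns, 4 of the 8 positive members were left (MAEL, RNF17, SYCP2 and DDX53). The negative member PRDM9 (-2.46 and -3.18) passed too. The share of all listed genes past this cut is not given here, so nothing is read from the count. When a difference between columns had to be at least 1, only 1 of the 6 members with the larger second value was left (SYCP2). Of the 3 members with the larger first value, 2 were left, MAEL and TDRD6, the latter narrowly, at 1.01. Among all listed genes, 168 had an excess over 1 on the second side and 13 on the first. With 1 member against 2, no change of balance between the columns can be read. By the authors' deposited table, the members' median log2 fold change was 2.49 (first column) and 2.38 (second column) over all 9; it was 2.50 and 2.72 over the positive members, and 2.30 and 2.34 without MAEL, the member of largest absolute mean. These shifts follow from the members that each setting leaves. The share of positive genes was 73.3% among protein-coding genes. No paired analysis was possible because the table holds no values per library, and for the same reason no library could be left out. Depth could not be judged for any gene.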
